A study of Mus musculus with 2 samples.

Results

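Amino acid transporters are the membrane carriers through which cells take up, exchange and recycle amino acids and a few related small molecules. The genes described here were chosen by name: all gene probes whose printed name begins with Slc1a, Slc3a, Slc6a, Slc7a, Slc36a, Slc38a or Slc43a and a number. The rule reads names and no measured value, but these families were picked with earlier results of the same arrays known, so what follows is a description. It found 96 of the 41174 gene probes, for 56 gene names, on both arrays alike. One of these, Slc7a6os, is the gene on the strand opposite Slc7a6 and no carrier. Of the 56 genes, 31 had a probe bright enough to be tested, out of 13739 genes tested on the arrays.

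The tested RNA came from mouse keratinocytes, the main cells of the epidermis, labelled as CHUK-LoxP mutant (Cy5 dye) and described in the labels as deleted for CHUK. It was set against RNA of keratinocytes labelled wild type (Cy3 dye). Each of 2 arrays carried both RNAs, and the labels number them as replicates 1 and 2. The labels give no Cre driver, strain, age or passage, and they leave unsaid whether different cultures or animals were used for arrays 1 and 2. What the p-values measure is thus the spread of these 2 arrays, possibly a technical one. No dye swap is recorded, so at the level of a single probe, dye and genotype cannot be told apart.

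The carriers differ in how they are driven. The Slc1, Slc6 and Slc38 families couple amino acids to sodium and concentrate them in the cell, and the Slc36 family couples them to protons. Most of the Slc7 family are light chains of a heteromer: a heavy chain, Slc3a2 (CD98) or Slc3a1 (rBAT), is bound to the light chain by a disulfide bond and brings it to the membrane, while the light chain does the transport. In epidermis these carriers feed the protein synthesis of dividing and cornifying cells, and cystine uptake feeds glutathione.

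Chuk itself, the gene of the kinase IKKα, was higher in the channel labelled Chuk-deleted by both of its probes. The brighter probe gave normalised intensities of 2304 and 2256 in cells labelled Chuk-deleted, against 1392 and 1343 in wild type (mean log2 ratio 0.74 ± 0.02, SD, n = 2, adjusted p = 0.000101, limma). This goes against the label, although where the probes lie relative to the deleted part is not given in the sources used here, and a probe outside that part checks nothing. Every direction below therefore rests on the channel labels alone. All ratios are log2 values of Chuk-deleted over wild type, and rose or fell means past an adjusted p of 0.05 in the limma fit across all tested probes. By channel, the share of gene spots well above background ran from 53.2% to 64.5%. Both arrays came from 1 slide and 1 scan.

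Of the 31 transporter genes tested, 14 rose and 10 fell, and 7 did not pass the threshold. Over all genes tested, 61.3% passed it, 33.0% higher and 28.3% lower, so a call by itself sets few genes apart on these arrays. The median ratio of the transporter genes was 0.08, beside 0.02 over all genes. A stricter count, at least 2-fold on both arrays, took 2 transporter genes that were higher (Slc7a8 and Slc1a3) and 2 that were lower (Slc1a1 and Slc6a14). Over all genes 1.50% were higher and 3.21% lower by that count. Just outside it lay Slc43a2 (1.14 and 0.95 on arrays 1 and 2) and Slc38a4 (0.92 and 1.09). Of the 24 called genes, 15 differed by less than 1.5-fold. The sign was the same on both arrays in 30 of 31 genes, the exception being Slc7a11. Where groups are said below to overlap or not, the values of a probe are compared across arrays, while the test uses the ratio within each array. The share of all genes without overlap was not counted, so a lack of overlap sets no gene apart. In these bulk RNAs, fewer cells of a type and less RNA per cell cannot be told apart.

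**Figure D1:**
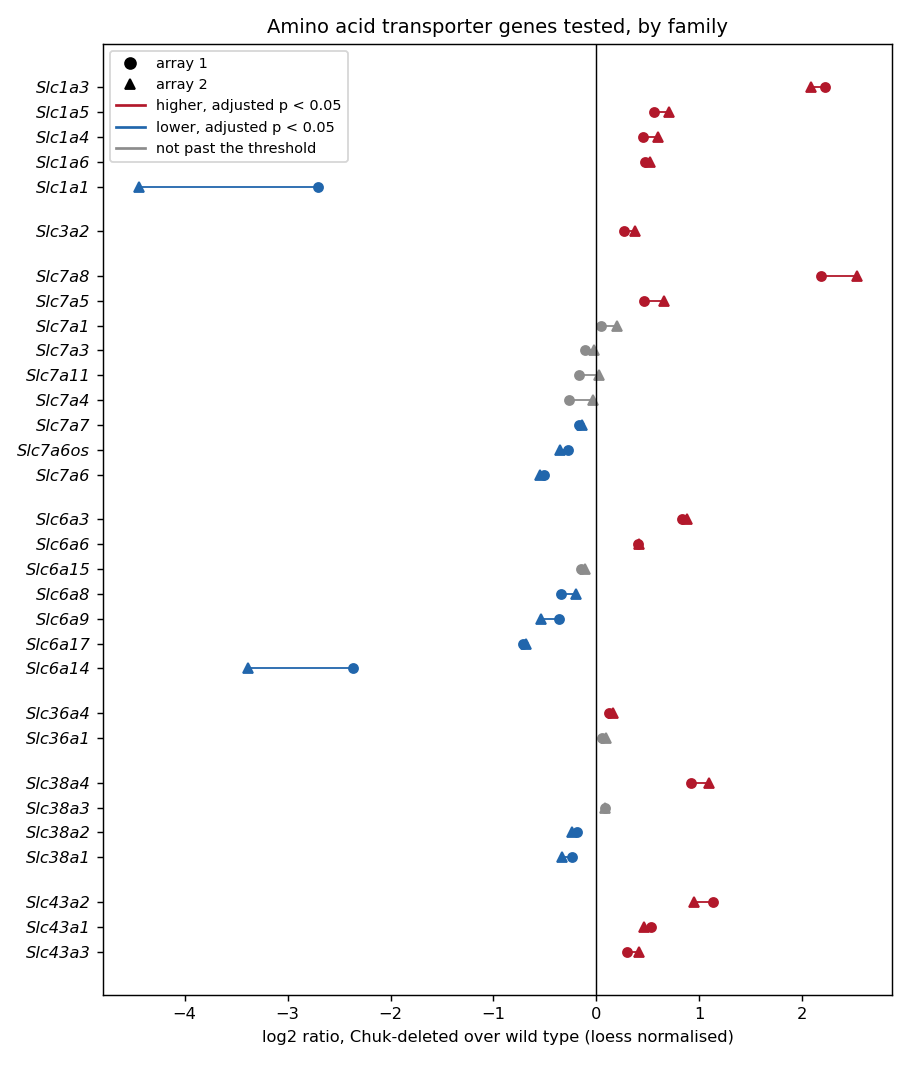
Log2 ratio of Chuk-deleted over wild type (x axis) for each of the 31 transporter genes tested, grouped by family, with a circle for array 1 and a triangle for array 2 and the colour giving the call. Slc7a8 and Slc1a3 lie above 2 and Slc1a1 and Slc6a14 below -2 on both arrays, while most of the other genes lie within 1 of 0.

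The zero of this scale depends on the centring. Centring each array on its median in place of loess lifted the median of all genes by 0.53, and subtracting from each array the average of its spike-in control ratios (the spike-in lowering) moved it by -0.76. The transporter genes were then split into 23 higher and 3 lower with median centring, and 4 higher and 23 lower after the spike-in lowering. The counts of the lists and markers below depend on the centring in the same way. The spike-in lowering takes the same amount from every gene of an array, so places relative to the median of all genes cannot change with it. With median centring, 22 of the 24 called transporter genes were on the same side of that median as with loess, the exceptions being Slc36a4 and Slc38a2. Read against 0, the means of 5 genes lay above 0 after the spike-in lowering: Slc7a8 (1.59), Slc1a3 (1.39), Slc43a2 (0.28), Slc38a4 (0.25) and Slc6a3 (0.10). Of these 5, Slc6a3 no longer passed the threshold (adjusted p = 0.435, limma). Each alternative was fitted anew with its own estimate of spread. The adjusted p of Slc1a1 was 0.000334 with loess, 2.47e-156 with median centring and 1.64e-277 after the spike-in lowering (limma). P-values and counts under these 2 centrings are therefore not like for like with those of loess. Slc1a1 and Slc6a14 were lower under each of the 8 alternatives tried and on each array alone.

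**Figure D2:**
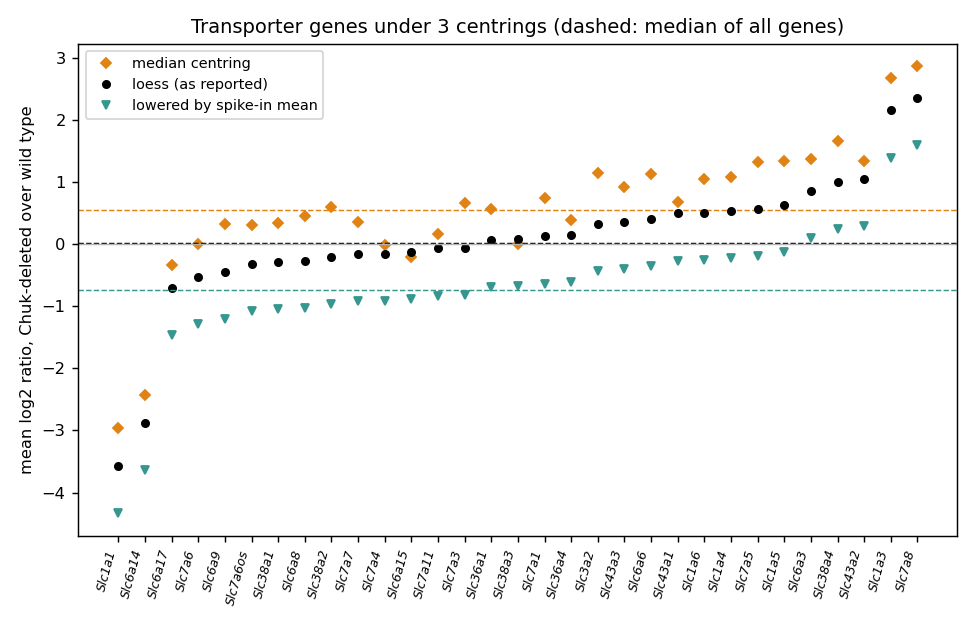
Mean log2 ratio of Chuk-deleted over wild type (y axis) of the 31 tested genes (x axis, ordered by the reported value) under loess (circles), median centring (diamonds) and lowering by the spike-in mean (triangles), with dashed lines at the median of all genes. The spike-in values run parallel to those of loess, while median centring also changes the order of genes in the middle of the series, and the 0 line cuts the series at different genes.

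The 4 genes at least 2-fold apart on both arrays are shown first, with the promoter window of each. The windows reach from 250 bases before to 50 bases after the start site (RefSeq, GRCm38.p6, 5′ to 3′ on the gene's strand). Capitals mark a match to any of 4 motifs on either strand: the amino acid response element TGATGNAA, the AP-1 motif TGANTCA, the E-box CACGTG and the kappaB motif. The windows lie at chr15:8710758-8711057 (minus strand) for Slc1a3, chr14:54781837-54782136 (minus strand) for Slc7a8, chr19:28834885-28835184 (plus strand) for Slc1a1 and chrX:21714650-21714949 (plus strand) for Slc6a14.
Slc1a3: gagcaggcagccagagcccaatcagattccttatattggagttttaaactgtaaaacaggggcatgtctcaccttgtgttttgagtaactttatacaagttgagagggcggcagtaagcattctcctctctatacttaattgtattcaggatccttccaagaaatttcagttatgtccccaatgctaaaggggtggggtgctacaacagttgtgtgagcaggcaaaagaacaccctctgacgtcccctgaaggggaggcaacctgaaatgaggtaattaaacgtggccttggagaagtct
Slc7a8: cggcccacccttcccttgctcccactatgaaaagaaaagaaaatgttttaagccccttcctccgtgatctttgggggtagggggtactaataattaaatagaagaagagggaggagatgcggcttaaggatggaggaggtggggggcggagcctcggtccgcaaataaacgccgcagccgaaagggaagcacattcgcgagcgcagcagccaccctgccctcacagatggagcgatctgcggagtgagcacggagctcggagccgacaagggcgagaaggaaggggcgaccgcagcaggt
Slc1a1: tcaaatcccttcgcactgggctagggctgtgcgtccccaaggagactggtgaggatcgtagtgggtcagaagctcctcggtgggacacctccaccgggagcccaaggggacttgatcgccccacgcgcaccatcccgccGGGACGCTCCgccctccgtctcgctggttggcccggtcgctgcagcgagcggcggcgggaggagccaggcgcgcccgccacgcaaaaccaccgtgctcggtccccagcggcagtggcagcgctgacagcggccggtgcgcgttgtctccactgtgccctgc
Slc6a14: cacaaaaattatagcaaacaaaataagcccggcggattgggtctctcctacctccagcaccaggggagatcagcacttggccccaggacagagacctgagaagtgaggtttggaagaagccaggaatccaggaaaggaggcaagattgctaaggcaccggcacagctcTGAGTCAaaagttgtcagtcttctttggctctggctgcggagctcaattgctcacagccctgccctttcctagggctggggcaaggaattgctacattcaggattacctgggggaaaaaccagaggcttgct
In the windows of Slc1a3 and Slc7a8, the genes that were higher, none of the 4 motifs was found. Slc1a1 held a kappaB match that begins 111 bases before the start site, and Slc6a14 held an AP-1 match that begins 82 bases before it. Of the 56 genes, 38 matched a promoter window. An AP-1 match was present for 6 of these 38 (15.8%, against 8.97% of 27025 genes with a window), a kappaB match for 8 (21.1%, against 9.55%) and an E-box for 8 (21.1%, against 8.09%). The amino acid response element was present for 3, Slc1a4, Slc7a7 and Slc7a11 (7.89%, against 4.51%). The 38 genes had 59 windows, against 32851 windows for the 27025 genes, so they had more windows per gene in which a match could fall. These are matches of letters only, with no overlap between motifs in the windows printed.

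Slc1 carriers take up glutamate and aspartate with sodium, except Slc1a4 and Slc1a5, which exchange small neutral amino acids. Of 7 genes on the array 5 were tested: Slc1a3, Slc1a4, Slc1a5 and Slc1a6 rose and Slc1a1 fell, and the rises of Slc1a4, Slc1a5 and Slc1a6 turned to -0.23, -0.13 and -0.26 after the spike-in lowering. Slc1a1, the epithelial and neuronal glutamate carrier that also takes up cysteine, had intensities of 919 and 314 on arrays 1 and 2 in cells labelled Chuk-deleted, against 6006 and 6832 in wild type. The wild-type signals were close together, and it was the Chuk-deleted channel in which the arrays differed. The ratio was -2.71 on array 1 and -4.44 on array 2 (mean -3.58 ± 1.23, SD, n = 2, 11.9-fold lower, adjusted p = 0.000334, limma). A dimmer probe, A_51_P110759, gave 362 and 198 in cells labelled Chuk-deleted against 1168 and 1653 in wild type, a mean of -2.38 ± 0.97. The SD of 1.23 was the largest of any tested transporter gene, whose median SD was 0.08.

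Slc1a3, the glutamate carrier best known from glia, went the other way. Its intensities were 1937 and 1124 in cells labelled Chuk-deleted and 416 and 265 in wild type, a ratio of 2.22 on array 1 and 2.09 on array 2 (mean 2.15 ± 0.09, 4.45-fold higher, adjusted p = 1.32e-05, limma). Both values of cells labelled Chuk-deleted lay above both wild-type values. Its probe A_52_P378975 gave a mean of 1.16 ± 0.11, with the wild-type signal well above background on 1 of the 2 arrays. Its remaining probe was too dim to be tested. The 2 glutamate carriers with the largest changes had opposite signs on both arrays.

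The neutral exchangers of the family moved less. Slc1a5, a main glutamine carrier of dividing cells, had 7844 and 9688 in cells labelled Chuk-deleted against 5315 and 5949 in wild type (mean 0.63 ± 0.10, adjusted p = 0.000262, limma). Slc1a4, which carries alanine, serine and cysteine, had 818 and 955 against 596 and 628 (mean 0.53 ± 0.10), and its other probe also rose (0.21 ± 0.04). Slc1a6, a glutamate carrier known from Purkinje cells of the cerebellum, had 957 and 1074 in cells labelled Chuk-deleted against 692 and 747 in wild type (mean 0.50 ± 0.04). For these 3 genes both Chuk-deleted values were above both wild-type values, and the share of all genes with such a gap was not counted. Slc1a2 and Slc1a7, also glutamate carriers, were too dim to be tested.

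**Figure D3:**
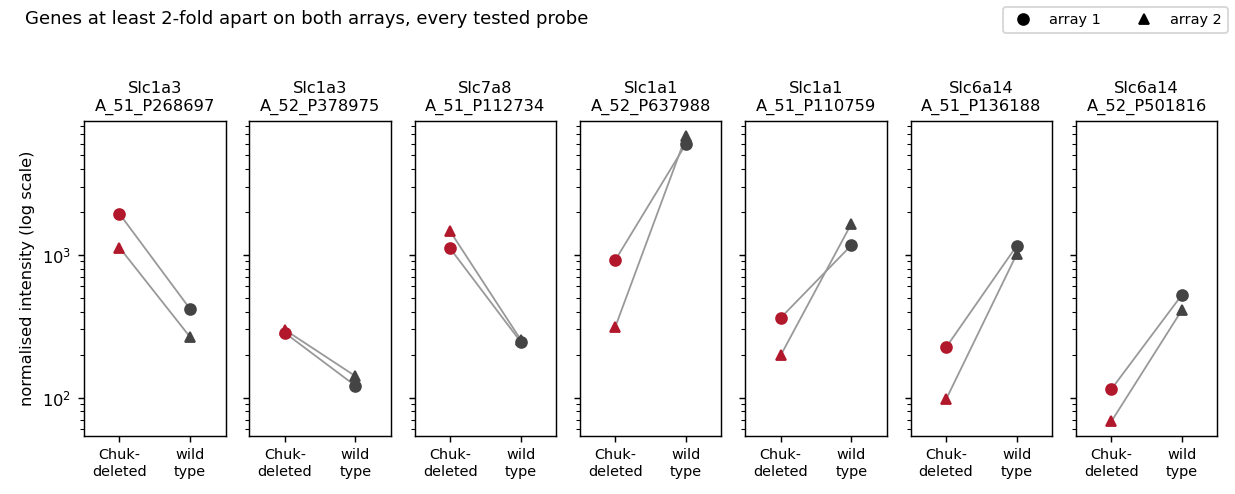
Normalised intensity (log scale) of each tested probe of Slc1a3, Slc7a8, Slc1a1 and Slc6a14 in cells labelled Chuk-deleted (left, red) and wild type (right, grey), with lines joining the 2 channels of an array. In all 7 panels the groups do not overlap. The genes were picked for being at least 2-fold apart on both arrays, so this is no separate result. For Slc1a1 and Slc6a14 the Chuk-deleted values are lower on array 2 than on array 1. Levels of different probes cannot be compared.

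Of the heteromeric carriers, Slc3a2, the heavy chain gene of most of them, rose slightly by its brighter probe, with 35784 and 48433 in cells labelled Chuk-deleted against 29758 and 37265 in wild type (mean 0.32 ± 0.08, 1.25-fold, adjusted p = 0.00317, limma). That value turned to -0.44 after the spike-in lowering, and the ranges of the groups overlapped across arrays. The dimmer probe of Slc3a2 gave 0.10 and -0.07. The other heavy chain gene, Slc3a1, was not tested: its probe was well above background in cells labelled Chuk-deleted on 1 array and in wild type on neither. Of its light chain genes, Slc7a9, which forms with it the cystine carrier of kidney and gut, and Slc7a13 were well above background in neither channel on either array.

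Light chain genes of Slc3a2 did not move as a group. Of 6 on the array 5 were tested, of which 2 rose and 2 fell, with a median of -0.07. Slc7a8, the light chain of LAT2, which exchanges neutral amino acids, had the largest rise of any tested transporter gene. No more than 1 probe measures it. Its intensities were 1109 and 1462 in cells labelled Chuk-deleted, against 245 and 253 in wild type. The ratio was 2.18 on array 1 and 2.53 on array 2 (mean 2.35 ± 0.25, 5.11-fold, adjusted p = 2.46e-05, limma), with no overlap between groups. Slc7a5, the light chain of the leucine carrier LAT1, had 23062 and 15847 in cells labelled Chuk-deleted against 16768 and 10031 in wild type. It was higher on each array (mean 0.56 ± 0.14, adjusted p = 0.00063, limma, and -0.20 after the spike-in lowering), although the groups overlapped between arrays.

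The light chains that exchange cationic for neutral amino acids fell after loess. With median centring they did not fall below 0, but the median of all genes then lay at 0.55. Relative to the median of all genes, Slc7a6 lay at -0.55 with loess and -0.54 with median centring. Slc7a7 lay at -0.18 and -0.20 in the same order, and Slc7a6os at -0.33 and -0.24. Slc7a6 (y+LAT2) had 534 and 654 in cells labelled Chuk-deleted against 761 and 959 in wild type, a mean of -0.53 ± 0.03 (adjusted p = 0.000316, limma), and its other tested probe gave -0.48 ± 0.03. With median centring it lay at 0.01. Slc7a6os, its neighbour on the opposite strand, gave -0.31 ± 0.06 (adjusted p = 0.00301, limma), and turned to 0.31 with median centring (adjusted p = 0.0071, limma). Slc7a7 (y+LAT1) fell by 0.16 ± 0.02, with 493 and 578 against 555 and 639 in wild type (adjusted p = 0.0367, limma), and its groups overlapped between arrays. With median centring it turned to 0.35 (adjusted p = 0.00191, limma). Its adjusted p was 0.0639 from the software's processed ratios and 0.0594 with no filter on dim probes.

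Slc7a11, the light chain of the cystine and glutamate exchanger xCT that supplies cysteine for glutathione, did not pass the threshold by its brightest probe. It had 154 and 202 in cells labelled Chuk-deleted and 173 and 198 in wild type (-0.17 and 0.03, adjusted p = 0.382, limma). Its 3 other tested probes gave means of 0.05, -0.21 and 0.19, of which the last 2 passed the threshold in opposite directions. All 4 probes were dim, with intensities between 102 and 202, where the lowest signals well above background lay between 67.2 and 87.7 by channel and array. Slc7a10 (Asc-1), which carries small neutral amino acids such as serine, was not tested, since it was well above background on only 1 array in each channel.

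**Figure D4:**
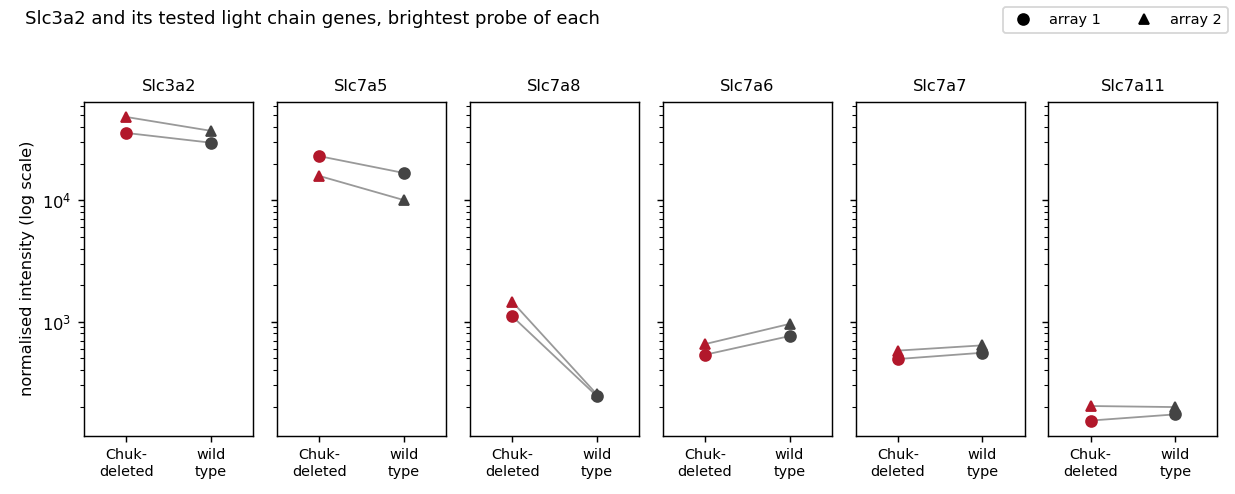
Normalised intensity (log scale) of the brightest probe of Slc3a2 and of its 5 tested light chain genes in cells labelled Chuk-deleted (left, red) and wild type (right, grey), with lines joining the 2 channels of an array. Slc7a8 rises steeply toward Chuk-deleted, Slc3a2 and Slc7a5 slightly, Slc7a6 and Slc7a7 run the other way and Slc7a11 is nearly level. Levels of different probes cannot be compared.

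The cationic carrier genes of the Slc7 family, which work without a heavy chain, gave no call among 3 tested. Slc7a1 (CAT1), a main arginine and lysine carrier, had 1318 and 2523 in cells labelled Chuk-deleted and 1279 and 2190 in wild type, with a mean of 0.12 ± 0.11 (adjusted p = 0.122, limma). Slc7a3 (CAT3) had 9459 and 11102 against 10220 and 11242 (mean -0.06 ± 0.07). Slc7a4 gave -0.27 and -0.04. The groups overlapped for all 3 genes, and with 2 arrays these p-values do not show that the genes were alike in the groups. Slc7a2 and Slc7a14 were never well above background.

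Slc6 carriers couple their substrate to sodium and chloride and include the carriers of neurotransmitters. Only 7 of 19 genes on the array were tested, of which 4 fell and 2 rose, with a median of -0.27. Slc6a14, which takes up nearly all neutral and cationic amino acids, fell furthest. Its intensities were 224 and 96.9 on arrays 1 and 2 in cells labelled Chuk-deleted, against 1157 and 1011 in wild type. The ratio was -2.37 on array 1 and -3.38 on array 2 (mean -2.87 ± 0.72, 7.34-fold lower, adjusted p = 0.00012, limma). The software's processed ratios gave a mean of -3.89. Its other probe gave -2.40 ± 0.28, with the Chuk-deleted signal well above background on 1 array. As with Slc1a1, the arrays differed mainly in the Chuk-deleted channel. The Chuk-deleted value of 96.9 on array 2 lay close to the lowest signal well above background there, 87.7. Array 2 was farther from 0 than array 1 in 21 of the 31 tested transporter genes, and in 18 of the 24 called. The share over all tested genes was not counted, so these counts mark no trait of the transporters.

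Slc6a17, a vesicle carrier of neutral amino acids known from neurons, had 156 and 283 in cells labelled Chuk-deleted against 257 and 456 in wild type. The mean was -0.70 ± 0.02 (adjusted p = 0.00012, limma), and both dimmer probes also fell (-0.40 ± 0.25, and -0.27 ± 0.04 with Chuk-deleted well above background on 1 array). Slc6a9, the glycine carrier GlyT1, had 14654 and 17455 in cells labelled Chuk-deleted and 18898 and 25324 in wild type, a mean of -0.45 ± 0.12, which turned to 0.32 with median centring. Slc6a8, the creatine carrier, fell by 0.27 ± 0.10 and turned to 0.45 with median centring. Relative to the median of all genes, Slc6a9 lay at -0.47 with loess and -0.23 with median centring, and Slc6a8 at -0.29 and -0.10. For Slc6a9 the groups did not overlap, and for Slc6a8 they did.

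The rises in this family were those of Slc6a3 and Slc6a6. Slc6a3, the dopamine carrier of neurons, had 669 and 855 in cells labelled Chuk-deleted against 377 and 464 in wild type (mean 0.85 ± 0.04, 1.81-fold, adjusted p = 7.08e-05, limma). Both Chuk-deleted values were above both wild-type values. It is measured by 1 probe. Of the neuronal markers, Snap25 and Syp were never well above background. Rbfox3 had 122 and 110 in cells labelled Chuk-deleted (well above background on both arrays), against 121 and 121 in wild type (on 1 array), and their part in the result was not tested. Slc6a6, the taurine carrier, had 10431 and 9114 in cells labelled Chuk-deleted against 7865 and 6831 in wild type (mean 0.41 ± 0.01). Its dimmer probe gave -0.14 ± 0.09 (adjusted p = 0.0778, limma), and the mean of both probes was 0.14 with an adjusted p of 0.0529. Slc6a15, a neutral amino acid carrier, gave -0.15 and -0.11, with the wild-type signal well above background on 1 array.

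All 3 Slc43 genes rose, and Slc43a1 and Slc43a3 lay at -0.26 and -0.40 after the spike-in lowering. Slc43a2 (LAT4), which lets large neutral amino acids pass without sodium, had 344 and 286 in cells labelled Chuk-deleted against 157 and 148 in wild type (mean 1.04 ± 0.13, 2.06-fold, adjusted p = 6.96e-05, limma). The software's processed ratios gave 1.71 for it. Slc43a1 (LAT3), of like function, had 222 and 171 against 154 and 124 (mean 0.49 ± 0.05), with wild type well above background on 1 array. Slc43a3, which carries purine nucleobases, had 1190 and 992 in cells labelled Chuk-deleted and 969 and 745 in wild type (mean 0.36 ± 0.08). The groups did not overlap for any of the 3, and the share of all genes without overlap was not counted.

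In the Slc38 family of sodium-coupled neutral amino acid carriers, 4 of 5 genes were tested. Slc38a4, which also carries cationic amino acids, had 4779 and 3828 in cells labelled Chuk-deleted against 2518 and 1799 in wild type. The mean was 1.01 ± 0.12 (2.01-fold, adjusted p = 6.89e-05, limma). Its dimmer probe did not show this, with 171 and 170 against 180 and 187 and a mean of -0.10 ± 0.05 (adjusted p = 0.133, limma). Slc38a1, a glutamine carrier, fell by each of its 5 probes, whose means lay between -0.92 and -0.20. Its brightest probe had 2049 and 1998 in cells labelled Chuk-deleted against 2418 and 2512 in wild type (mean -0.28 ± 0.06), and turned to 0.35 with median centring. That probe lay at -0.31 with loess and -0.20 with median centring relative to the median of all genes. Slc38a3 gave 0.08 on each array, with wild type well above background on neither.

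Slc38a2, whose carrier is known to be induced when amino acids run short, is not settled by these arrays. Its brightest probe fell, with 24746 and 31355 in cells labelled Chuk-deleted against 28225 and 36830 in wild type (mean -0.21 ± 0.03, adjusted p = 0.013, limma). Its 3 other probes rose, with means of 0.43 ± 0.09, 0.89 ± 0.17 and 0.84 ± 0.18. The mean of all 4 probes was 0.48 (adjusted p = 0.00205, limma), so the direction of the gene depends on the probe. Slc38a1, Slc38a2 and Slc38a4 are neighbours on chromosome 15 in RefSeq.

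**Figure D5:**
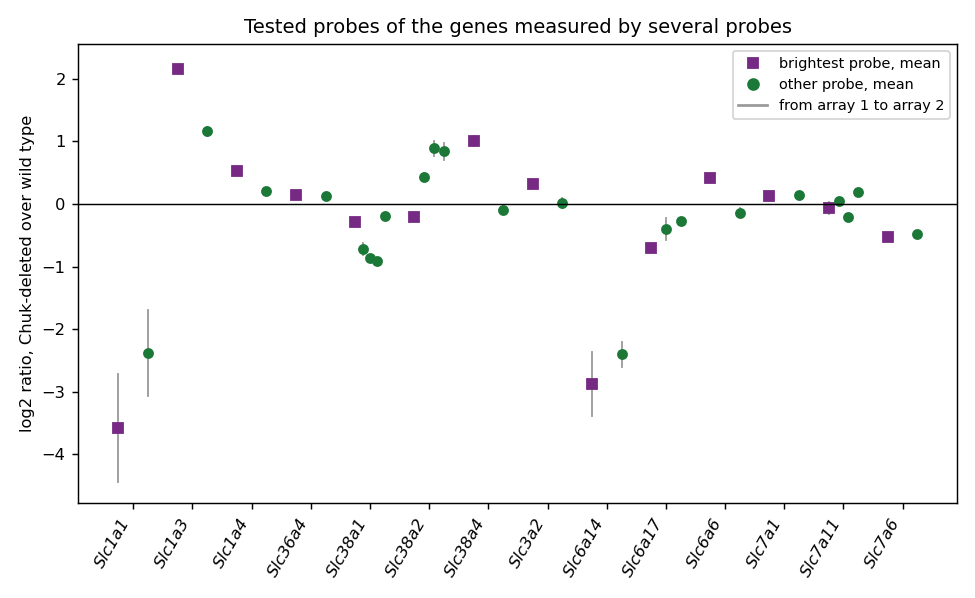
Mean log2 ratio of Chuk-deleted over wild type (y axis) of each tested probe of the 14 transporter genes with several tested probes (x axis), with squares for the brightest probe, circles for the others and lines spanning arrays 1 and 2. Probes of Slc38a2 and Slc7a11 were called in opposite directions, and those of Slc38a4 and Slc6a6 have means of both signs.

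Among 14 genes with several tested probes, 2 had probes called in opposite directions (Slc38a2 and Slc7a11), and 4 had means of both signs, with Slc38a4 and Slc6a6. Of the proton-coupled Slc36 carriers 2 of 4 were tested. Slc36a1, which exports amino acids from the lysosome, gave 0.05 and 0.09 (adjusted p = 0.263, limma). Slc36a4, a high-affinity carrier of proline and tryptophan, rose by 0.14 ± 0.02 with an adjusted p of 0.0491, and did not pass the threshold under 4 alternatives (adjusted p from 0.055 to 0.0803, limma).

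The 25 genes that were not tested were near background in both channels. Their 38 probes had normalised intensities from 56.4 to 136 in cells labelled Chuk-deleted and from 54.9 to 137 in wild type. Of the 25 genes, 15 had no signal well above background in either channel or array. The other 10 had one in cells labelled Chuk-deleted, on no more than 1 array for any probe, and 2 of them, Slc1a2 and Slc7a10, also had one in wild type. Over all gene spots the Chuk-deleted channel also had more well above background. The shares were 64.5% and 57.4% on arrays 1 and 2, against 59.1% and 53.2% in wild type. The Slc6 family held 12 of the 25, among them the GABA carriers Slc6a11, Slc6a12 and Slc6a13, the noradrenaline carrier Slc6a2, the serotonin carrier Slc6a4, the glycine carrier Slc6a5 and the proline carrier Slc6a7. The kidney and gut carriers Slc6a18, Slc6a19 and Slc6a20 were there too, with Slc6a16. The Slc7 family held 7, among them Slc7a12 and Slc7a15, and the rest included Slc36a2, Slc36a3 and Slc38a5. Such dim probes allow no ratio to be read.

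Genes that work with these carriers were read from 5 lists, and the medians of the lists lay between -0.11 and 0.01, beside 0.02 over all genes. Over all genes tested 33.0% rose and 28.3% fell, so the counts called below do not by themselves mark a list as changed. Of 33 amino acid response genes, the targets and regulators of the transcription factor ATF4, 9 rose and 11 fell (median -0.01). Nupr1, a stress-induced nuclear protein gene, fell by 1.79 ± 0.81, with 15615 and 7535 in cells labelled Chuk-deleted against 36236 and 38822 in wild type. Atf3 (-0.88 ± 0.24) and Ppp1r15a, the gene of a subunit of the phosphatase that restores translation (-0.72 ± 0.11), fell as well. Cth, whose enzyme makes cysteine, rose by 0.52 ± 0.08. Atf4 itself fell by 0.21 ± 0.11, and Asns, the asparagine synthetase gene, gave -0.18 and -0.02 (adjusted p = 0.202, limma).

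Of 24 tested genes of amino acid sensing by the kinase complex mTORC1, 6 rose and 10 fell (median -0.11). The Rag GTPase gene Rragc (-0.59 ± 0.11), the transcription factor gene Tfeb (-0.39 ± 0.01, with Chuk-deleted well above background on 1 array) and Lamtor1, which anchors the Rag proteins at the lysosome (-0.33 ± 0.02), fell. Sesn1, a sensor gene, rose by 0.38 ± 0.05. Of 7 partners and regulators of the carriers, 2 rose and 3 fell (median -0.10). Nedd4l, a ubiquitin ligase gene, fell by 0.60 ± 0.04 and the kinase gene Sgk3 by 0.32 ± 0.01. Arl6ip5, whose protein binds the carrier encoded by Slc1a1, rose by 0.62 ± 0.09, with 9406 and 9412 against 6417 and 5875 in wild type.

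Of 13 tested amino acid and peptide carriers of other SLC families, 3 rose and 6 fell (median -0.11). The peptide carrier genes Slc15a1 (-1.29 ± 0.38, with Chuk-deleted well above background on 1 array) and Slc15a3 (-0.75 ± 0.07) fell, and so did Ctns, the gene of the lysosomal cystine exporter (-0.78 ± 0.20). The mitochondrial basic amino acid carrier gene Slc25a29 rose by 0.95 ± 0.15. Of 14 tested genes of enzymes that use the carried amino acids, 5 rose and 4 fell (median 0.01). Arg1, the arginase gene, had 2512 and 308 on arrays 1 and 2 in cells labelled Chuk-deleted against 14219 and 16547 in wild type (-2.50 and -5.75, adjusted p = 0.00221, limma), with the difference between arrays again in the Chuk-deleted channel. Arg2 fell by 0.44 ± 0.05 (Chuk-deleted well above background on 1 array). Gclc, whose enzyme starts glutathione synthesis, rose by 0.57 ± 0.05.

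Markers of other cells moved on the same arrays, where 33.0% of all genes tested rose and 28.3% fell. Of 10 fibroblast markers 8 rose and 1 fell, with all 10 above background in some channel. Their summed intensity was 197586 and 185134 in cells labelled Chuk-deleted against 121816 and 102109 in wild type. Such sums, here and below, take in the brightest probe of every listed marker, also of those not tested or never well above background. They follow the brightest probes and do not measure the share of a cell type. Vim alone gave 93688 and 83890 of the fibroblast sums in cells labelled Chuk-deleted. There Mbp gave 4272 and 5363 of the neural and glial sums. Of 7 tested melanocyte markers 6 fell and 0 rose, with sums of 20534 and 18178 in cells labelled Chuk-deleted against 48652 and 49860 in wild type. Of these markers Tyr was never well above background. Of 10 keratinocyte markers 6 rose and 4 fell (Krt1, Krt10, Dsg3 and Perp), with sums of 1066090 and 1082520 in cells labelled Chuk-deleted against 750877 and 747156 in wild type. Krt1, a marker of differentiated cells, was not well above background in cells labelled Chuk-deleted. Its measured signal was 1.29-fold lower there, which so near background is no firm value. Of 6 immune markers Cd207, Itgax and Ptprc were never well above background, and of 3 tested 1 rose and 2 fell, with sums of 1749 and 1530 in cells labelled Chuk-deleted against 2973 and 2787 in wild type. Of 5 endothelial markers Pecam1 and Tek were never well above background, and the only one tested, Kdr, rose by 0.21 ± 0.02. Kdr gave 1161 and 1177 in cells labelled Chuk-deleted against 1011 and 1009 in wild type. The sums over all 5 were 1516 and 1489 against 1356 and 1330. Of 7 neural and glial markers 4 were tested, of which S100b rose and Mbp fell, while Gfap, Snap25 and Syp were never well above background. Their sums were 5485 and 6555 in cells labelled Chuk-deleted against 7160 and 9662 in wild type. The part of such cells in the changes of Slc1a3, Slc7a8 or any other transporter gene was not tested.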

How the data were processed

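The 2 arrays are 2-colour Agilent arrays. Per the file headers, the scanner images were read with Agilent Feature Extraction 9.1.3.1. The deposited intensity columns are the mean spot and median local background brightness of each channel. Per the file headers the same software also wrote background-subtracted, dye-normalised intensities, their log10 ratio and a p-value per spot, of which the p-value was not used. The deposited value table equalled that log10 ratio to within 0.005.

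Intensities were background corrected with limma 3.58.1 in R 4.3.3 (normexp, offset 50). Loess was fitted array by array, giving control spots a weight of 0. Outlier spots were left out, and spots of a probe were averaged. Normalised intensities are the channel values after loess and Aquantile scaling. To be tested, a probe had to be well above background on each array, in either channel (23519 of 41174 probes). The test was lmFit and eBayes, two-sided, against 0, and p-values were adjusted after Benjamini and Hochberg across every tested probe. With 2 arrays a probe leaves 1 residual degree of freedom, and the prior of eBayes contributed 5.16 in the reported fit. Each alternative had its own prior. A gene is its brightest tested probe, named through RefSeq (GRCm38.p6) by accession (16129 probes), by symbol (4721) or as in the files (628), while 2041 had no name. No saturated spot lay among the transporter probes. The number of arrays limits the precision.

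The members and lists were chosen with earlier results of these data known. Every transporter gene is named or counted, with full values for those at least 2-fold apart on both arrays, for Slc3 genes and light chains and for the 2 largest changes of a family. From each list up to 4 called genes with the largest change are named. A few genes are counted but not reported here by name. Atf4, Asns and the probes that disagree were added after their values were seen. Alternatives were the software's ratios, a normexp offset of 16, median centring, the spike-in lowering, no or a stricter filter, the mean of a gene's probes, scaling between arrays and each array alone.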

Additional observations from a re-analysis of the deposited data

How the results depend on the processing

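Calls of single transporter genes were kept under most alternatives, and centring moved them most. The fits with median centring and the spike-in lowering had their own estimates of spread. Their counts called and p-values are thus not like for like with the reported ones. With median centring in place of loess, 10270 of all genes were higher and 988 lower, and among transporter genes 23 were higher, 3 lower and 9 at least 2-fold higher on both arrays. After lowering by the spike-in mean these numbers were 281 and 12497 over all genes, and among transporter genes 4 were higher, 23 lower and 6 at least 2-fold lower on both arrays. The shift of the spike-in lowering follows from its construction, since it takes the same amount from every gene of an array. Median centring moved genes by unlike amounts, such as Slc3a2 from 0.32 to 1.15 and Slc38a3 from 0.08 to 0.0086. On 1 array alone, 3 transporter genes were at least 2-fold higher (Slc43a2 joined on array 1 and Slc38a4 on array 2) and 2 lower. Chuk lay at -0.020 after the spike-in lowering (adjusted p = 0.87, limma).

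The spike-in lowering turned the sign of Slc1a4 (-0.23), Slc1a5 (-0.13), Slc1a6 (-0.26), Slc3a2 (-0.44), Slc36a1 (-0.69), Slc36a4 (-0.61), Slc38a3 (-0.68), Slc43a1 (-0.26), Slc43a3 (-0.40), Slc6a6 (-0.35), Slc7a1 (-0.63) and Slc7a5 (-0.20). Median centring turned Slc38a1 (0.35), Slc38a2 (0.60), Slc6a8 (0.45), Slc6a9 (0.32), Slc7a3 (0.66), Slc7a6 (0.0089), Slc7a6os (0.31) and Slc7a7 (0.35). The median of all genes lay at 0.55 with median centring and -0.74 after the spike-in lowering. The mean over probes turned Slc38a2 (0.48). Slc36a4, Slc38a2, Slc7a7 and Slc6a6 lost their call under at least 1 other alternative, and the cause was not tested.

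The list medians were 0.70, 0.49, 0.61, 0.49 and 0.66 with median centring and -0.77, -0.87, -0.86, -0.87 and -0.75 after the spike-in lowering, in the order amino acid response, mTORC1 sensing, partners, other carriers and enzymes. The mean over probes gave 0.021 for the response list, -0.052 for mTORC1 sensing, 0.014 for the partners and -0.020 for the enzymes. The stricter filter gave -0.088 for mTORC1 sensing, 0.015 for the partners and 0.033 for the enzymes. With no filter the medians were -0.034 for the partners, -0.021 for the other carriers and -0.0079 for the enzymes. The software's ratios gave -0.12 for the partners, and the offset of 16 gave -0.0033 for the enzymes.

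The test was already paired by array, since both channels of an array form the ratio that was tested, and the arrays make up a single group.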

Other observations

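RefSeq names place 12 further probes in these families whose printed names are older clone names and which the name rule leaves out. They belong to 6 genes, of which Slc38a7, Slc38a9 and Slc38a10 were tested, and they were singled out after their values were seen. Slc38a9, whose protein senses arginine at the lysosome for mTORC1, had 4 tested probes that disagreed, with mean ratios of 0.62 and 0.08 for 2 of them and -0.43 and -0.28 for the others. Slc38a10 gave 0.28 ± 0.11 by one probe (adjusted p = 0.00685, limma) and -0.07 ± 0.14 by the other, and Slc38a7 gave 0.13 ± 0.13 (adjusted p = 0.135, limma).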
